A study of Arabidopsis thaliana with 12 samples.

Results

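The roots compared here were those of Arabidopsis thaliana Col-0 seedlings kept for 24 h in arsenate, As(V), against those kept for 6 h, with 2 libraries in each group. The comparison takes every gene with at least 1 FPKM in at least 2 of these 4 libraries, which gave 19086 of the 33557 genes in the deposited table, and 16437 of them reached 1 FPKM in all 4. All seedlings were wild type, each library was made from 60 of them, and all had spent 7 days on 1 mM phosphate and a further 2 days on none. As(V) seedlings were then moved to liquid medium that held 30 µM As(V) and no phosphate. The mock roots of 24 h and 6 h, again 2 libraries each, served to tell the course of the As(V) response from the course of time, and a further 4 libraries of 1.5 h entered the fit only. The labels do not say whether the replicates were separate cultures, so p-values measure the spread between these libraries, which may be technical.

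Arsenate resembles phosphate and enters root cells through phosphate transporters. Inside the cell it is reduced to arsenite, which binds thiol groups of proteins. Glutathione and its polymers, the phytochelatins, bind arsenite in turn, and ABC transporters move the complexes into the vacuole. Damaged proteins are met by heat shock chaperones, the proteasome and autophagy. The comparison of 24 h with 6 h asks which of these responses had gone back toward mock after a day and which had stayed.

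Library size and scaling bear on every value below. Each library held 13.22 to 16.8 M reads as estimated from the steps of the deposited FPKM values, with 16.47 and 13.97 M at 24 h of As(V) and 14.7 and 14.94 M at 6 h. The deposited scaling implied library sizes of 1.032 and 0.984 times these reads at 24 h of As(V) and 0.424 and 0.44 times at 6 h of As(V). Mock libraries had 0.915 to 0.979 times. The top 50 genes by reads held 12.8% or less of each 24 h library of As(V), and 16.5% or more of each 6 h library. Over the genes tested here, the deposited values gave a median log2 change of -0.06 between 24 h and 6 h of As(V). With library totals alone it was 0.97, so a gene's direction is relative to the scaling, and directions below are those of the deposited values unless library totals are named. Summed levels of 10 root markers were 746 to 834 FPKM at 24 h of As(V), 1420 to 1590 at 6 h of As(V), 4700 to 5170 in mock at 24 h and 7170 to 7260 in mock at 6 h. PYK10, a beta-glucosidase of the root, made up most of these sums. The 7 markers of green tissue summed to 47.0 to 54.5 FPKM at 24 h of As(V), 97.5 to 102 at 6 h of As(V), 121 to 135 in mock at 24 h and 117 to 123 in mock at 6 h. The part of these differences in the results below was not tested.

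**Figure D1:**
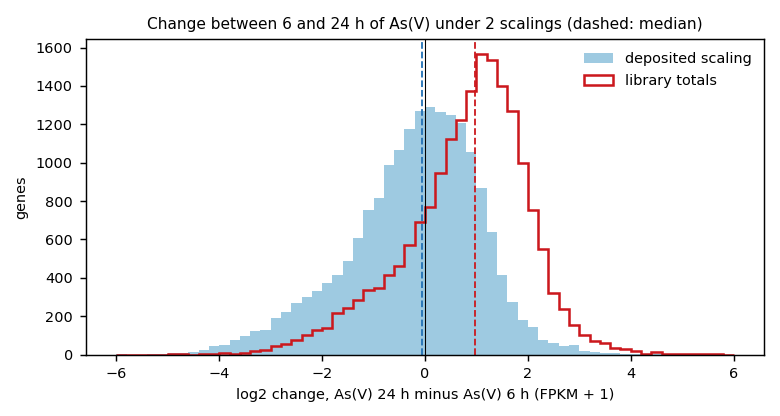
Number of genes (vertical axis) by the log2 change of FPKM + 1 between 24 h and 6 h of As(V) (horizontal axis), filled as deposited and as a red line with library totals; values beyond 6 are drawn at 6. The dashed medians lie at -0.06 as deposited and 0.97 with library totals.

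Changes are given as the log2 difference of FPKM + 1, 24 h minus 6 h, ± its standard error. Adding 1 shrinks the changes of genes with low FPKM. Genes were called at an adjusted p under 0.05 (limma, Benjamini-Hochberg over 19897 genes). Of the 18736 genes of the comparison that had enough reads for the test, with 350 left untested, 5801 (31.0%) were higher and 7565 (40.4%) lower after 24 h of As(V) than after 6 h, and 5370 were not called, so that 71.3% were called in either direction. The counts of each list below are to be read beside these shares. Of the 19086 genes compared, 1093 were under 1 FPKM in both 6 h libraries and 362 in both 24 h libraries. Such genes entered through the other time alone, so the direction of their deposited values was set by that choice. The counts called higher and lower include genes of this kind. Scaled by library totals, 12792 genes were called higher and 3001 lower. Of the genes called lower as deposited, 2587 were then called higher. Under the deposited, the median-of-ratios and the library-total scaling alike, 5801 (31.0%) were called higher and 3001 (16.0%) lower. Library totals moved the changes up, so a gene higher as deposited had little room to lose its call. Calls under every scaling, here and below, therefore put the falls to a test and not the rises. In mock roots 2484 (13.3%) were higher and 1953 (10.4%) lower at 24 h than at 6 h. The change itself differed between As(V) and mock in 64.7% of genes, being higher in As(V) for 5218 (27.9%) and lower for 6900 (36.8%).

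The 8 genes named for the largest falls differ in function and, by the rule, are called lower under all 3 scalings. AT2G28210, the alpha carbonic anhydrase 2, had 8.18 and 9.57 FPKM at 24 h of As(V) against 663 and 508 at 6 h, a change of -5.89 ± 0.17 (adjusted p = 3.2e-10). It had 5.45 and 8.18 FPKM in mock at 24 h and 5.38 and 5.94 at 6 h, and the difference from mock at 24 h of 0.35 was not called. RRTF1, a redox-responsive transcription factor of the ERF family, had 1.56 and 1.19 FPKM at 24 h of As(V) against 130 and 69.4 at 6 h and changed by -5.33 ± 0.65 (adjusted p = 3.4e-05). ILL6, which releases jasmonate and auxin from amino acid conjugates, changed by -5.27 ± 0.11, with 6.45 and 8.17 FPKM at 24 h of As(V) against 336 and 296 at 6 h. The P450 gene CYP81D11 changed by -5.17 ± 0.15, the oxidoreductase gene AT5G22140 by -5.2 ± 0.13 and the acyltransferase gene AT5G07870 by -5.03 ± 0.06. AT5G53680, described as an RNA-binding protein, had 7.69 and 12.1 FPKM at 24 h of As(V) against 383 and 344 at 6 h, and 0 and 0 FPKM in mock at 24 h and 0 and 0.199 at 6 h. The rule that named these genes takes only genes whose 2 groups do not overlap. The largest fall of the genes so chosen, in AT5G65609, with 5.79 and 0 FPKM at 24 h of As(V) against 201 and 149 at 6 h, belongs to an uncharacterized gene that overlaps AT5G65600 on the same strand, so its reads are uncertain. Its change of -5.98 ± 1.19 (adjusted p = 0.0012) was -7.44 (adjusted p = 0.051) without replicate 1 of 24 h.

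Most of the 8 genes named for the largest rises had under 3 FPKM in both 6 h libraries. AT3G56290, AT1G48750 and AT2G41480 were under 1 FPKM in both, so they entered the comparison through the 24 h libraries alone. AT3G56290, described as a potassium transporter, had 42.1 and 41.9 FPKM at 24 h of As(V) against 0.292 and 0.554 at 6 h, a change of 4.92 ± 0.72 (adjusted p = 0.00011), and 12.4 and 11.9 FPKM in mock at 24 h and 13.1 and 11.4 at 6 h. The class III peroxidase gene AT5G19890, of the enzymes that cross-link cell walls, had 107 and 82.0 FPKM at 24 h of As(V) against 1.62 and 2.8 at 6 h and changed by 4.9 ± 0.5. It had 533 and 641 FPKM in mock at 24 h and 106 and 104 at 6 h. Among genes listed at 0 in both 6 h libraries, the lipid-transfer protein gene AT1G48750 had 26 and 25 FPKM at 24 h of As(V) and the peroxidase gene AT2G41480 had 25.0 and 24.6. No fold is given for them. The F-box gene AT2G36090 changed by 4.57 ± 0.61, AT5G10580, of unknown function, by 4.37 ± 0.27 with 127 and 129 FPKM at 24 h of As(V) against 2.96 and 8.86 at 6 h, and UMAMIT11, of a family of amino acid transporters, by 4.35 ± 0.38 with 47.2 and 47.3 FPKM at 24 h of As(V) against 1.46 and 1.28 at 6 h. The noncoding RNA AT2G24592 came out highest, at 4.97 ± 2.0 (adjusted p = 0.048). It had 278 and 459 FPKM at 24 h of As(V) against 127 and 0 at 6 h, but rests on 6 and 8 estimated reads at 24 h against 1 and 0 at 6 h. Its call was lost in 11 of 14 alternatives, with an adjusted p of 0.055 to 0.54 and the lowest change, 1.47, without replicate 2 of 6 h.

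Sorting the genes by their distance from mock separated what returned from what stayed. At 24 h, 5795 genes (30.9%) were higher with As(V) than in mock and 6623 (35.3%) lower, 66.3% in all. At 6 h, 7056 (37.7%) were higher and 6961 (37.2%) lower, 74.8% in all. The counts of each list against mock below are to be read beside the shares of the same time. Of the genes tested, 4336 (23.1%) were called higher at 6 h by at least 1 on the log2 scale, and 3641 (19.4%) were called lower by as much. These genes were sorted by the comparison at 24 h, which uses other libraries. Of the 4336 genes higher at 6 h, 964 (22.2%) stayed higher by at least 1 at 24 h, 1395 (32.2%) stayed called higher by less than 1, 1375 (31.7%) were not called and 602 (13.9%) were called lower than mock. Of the 3641 lower at 6 h, 1396 (38.3%) stayed lower by at least 1, 1107 (30.4%) by less, 856 (23.5%) were not called and 282 (7.75%) were called higher than mock. Counted another way, 1844 (42.5%) of those higher at 6 h and 1210 (33.2%) of those lower lay within 0.5 of mock at 24 h with a called difference between the times, and these are called returned below. A returned gene can still be called on the same side of mock, or on the other, so these counts overlap the classes above. With library totals the returned genes numbered 601 and 4759.

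**Figure D2:**
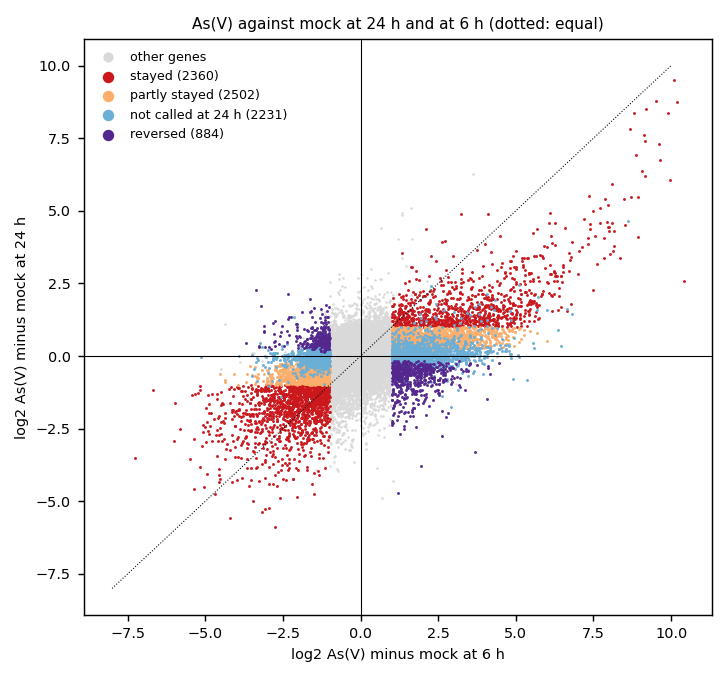
Each point is 1 gene, with the log2 difference between As(V) and mock at 6 h on the horizontal axis and at 24 h on the vertical axis; colours give the class at 24 h of the genes called and changed by at least 1 at 6 h, and grey points are all other genes. Points on the dotted line are as far from mock at 24 h as at 6 h, and HSP18.2 lies farthest out at the upper right, at 9.49 for 24 h and 10.1 for 6 h.

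In the class that stayed higher, the median distance from mock was 1.5 at 24 h and 3.39 at 6 h. In the class that stayed lower it was -1.67 at 24 h and -2.0 at 6 h. The 6 h distances chose these genes, so the pairs of medians are a description only. A further 241 genes were called higher than mock by at least 1 at 24 h and not called at 6 h, and for 170 of them the difference between the times was called. In the other direction there were 436 such genes, 350 with a called difference. The same libraries chose these genes and gave the difference, so the counts with a called difference are a description only.

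The genes with the largest excess over mock at 6 h that stayed were AT5G64401, HSP17.6C, HSP18.2, UGT74E2 and HSP17.6A. HSP18.2, a cytosolic small heat shock protein that holds unfolding proteins, had 3786 and 5634 FPKM at 24 h of As(V) against 12248 and 10598 at 6 h, and 3.93 and 7.43 FPKM in mock at 24 h and 7.1 and 12 at 6 h. Its change of -1.3 ± 0.17 (adjusted p = 5.8e-05) was -0.08 (adjusted p = 0.65) with library totals, and at 24 h it was still above mock by 9.49. UGT74E2, which glycosylates the auxin indole-3-butyric acid, had 67.1 and 85.5 FPKM at 24 h of As(V) against 1476 and 1586 at 6 h, and 0 and 0.301 FPKM in mock at 24 h and 0.355 and 0.74 at 6 h. It changed by -4.32 ± 0.12 and was above mock by 6.07 at 24 h and 9.96 at 6 h. AT5G64401, uncharacterized, had 164 and 163 FPKM at 24 h of As(V) against 3868 and 2918 at 6 h, from 36 and 29 estimated reads at 24 h and 312 and 248 at 6 h.

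By definition the genes that returned lay near mock at 24 h, and examples follow. AT4G30490, an AFG1-like ATPase gene, had 24.1 and 25.4 FPKM at 24 h of As(V) against 795 and 742 at 6 h, and 23.6 and 24.7 FPKM in mock at 24 h and 21.2 and 22.6 at 6 h. It had been above mock by 5.07 at 6 h, and at 24 h the difference was 0.04. AT5G07860, of the same acyltransferase family as AT5G07870, had 2.6 and 2.6 FPKM at 24 h of As(V) against 119 and 105 at 6 h, and 2.94 and 2.41 FPKM in mock at 24 h and 2.64 and 2.03 at 6 h. The receptor kinase gene AT5G25930 had 16.9 and 23.7 FPKM at 24 h of As(V) against 418 and 419 at 6 h, and at 24 h lay 0.45 from mock. Of those that had been low, AT4G09890, described as a Mediator subunit, had 15.2 and 19.3 FPKM at 24 h of As(V) against 0.489 and 0.464 at 6 h, and 17.7 and 15.7 FPKM in mock at 24 h and 16.6 and 14.6 at 6 h, and AT2G36090 differed from mock by 0.01 at 24 h and -3.93 at 6 h. ANNAT7, an annexin, is also in this class, but its As(V) level was not called, at 0.68 ± 0.52 (adjusted p = 0.27; 1.27 with library totals), while mock changed by -2.3 ± 0.2, with 2.66 and 3.73 FPKM in mock at 24 h and 18.8 and 20.2 at 6 h. BGLU28, a beta-glucosidase induced by sulfur deficiency, was not called against mock at 24 h, although its As(V) libraries then held 15.2 and 40.2 FPKM, against 0 and 0.0378 in mock, and it is not counted as returned.

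Among genes that crossed to the other side of mock, those with the largest 6 h distances are named. CBL1, a calcium sensor, had 36.1 and 39.5 FPKM at 24 h of As(V) against 584 and 522 at 6 h, and 43.3 and 45.9 FPKM in mock at 24 h and 23.1 and 25.6 at 6 h, and its distance from mock was -0.24 at 24 h and 4.45 at 6 h. SUFE2, which supplies sulfur for iron-sulfur clusters, had 27.3 and 29.4 FPKM at 24 h of As(V) against 400 and 341 at 6 h, and 79.0 and 83.9 FPKM in mock at 24 h and 18.1 and 24.0 at 6 h, and lay at -1.49 against mock at 24 h. CAX4, a vacuolar cation exchanger, and the Dof factor gene AT4G00940 also crossed, at -0.4 and -0.36. XTR6, a xyloglucan endotransglycosylase, had 11.7 and 17.2 FPKM at 24 h of As(V) against 342 and 417 at 6 h and lay -0.61 from mock at 24 h. From below, SDR1, a short-chain dehydrogenase, had 38.6 and 40.3 FPKM at 24 h of As(V) against 2.35 and 2.97 at 6 h and lay 0.3 above mock at 24 h.

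Heat shock genes fell between the times and yet stayed far above mock. All 29 of the list were lower at 24 h than at 6 h of As(V), 26 of them under every scaling, with a median change of -2.93 (-1.72 with library totals, 0 higher and 26 lower), against -0.06 (0.97) over all genes. At 24 h 27 were still above mock, with a median distance of 4.39, against 7.19 at 6 h, when all 29 were above. In mock 3 of them were lower at 24 h than at 6 h and 0 higher, with a median of -0.44. FES1A, a cochaperone of HSP70, had 269 and 354 FPKM at 24 h of As(V) against 4751 and 4349 at 6 h and changed by -3.88 ± 0.1 (adjusted p = 1.9e-10). HSFA2, the factor that prolongs the heat shock response, had 60.4 and 85.9 FPKM at 24 h of As(V) against 1005 and 1109 at 6 h, and 1.59 and 3.72 FPKM in mock at 24 h and 4.15 and 6.5 at 6 h, a change of -3.86 ± 0.15 (adjusted p = 2.1e-09). CLPB4, a mitochondrial disaggregase, changed by -3.81 ± 0.08, and HSP101, its cytosolic relative, by -3.13 ± 0.2 with 212 and 328 FPKM at 24 h of As(V) against 2407 and 2225 at 6 h. The 2 genes no longer called above mock at 24 h were chosen after their values were seen: HSFA7A, with 11.6 and 17.0 FPKM in As(V) and 12.1 and 18.7 FPKM in mock at that time, and the constitutive chaperone gene HSC70-1, with 869 and 1012 FPKM in As(V) and 962 and 889 FPKM in mock.

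Small heat shock proteins, which hold unfolding proteins, held the 4 highest FPKM levels of the list at both times. Except for HSP17.6C, the genes of this paragraph were picked after their values were seen. HSP17.4A had 2030 and 2779 FPKM at 24 h of As(V) against 8231 and 8003 at 6 h. HSP17.6C had 1504 and 2401 FPKM at 24 h of As(V) against 10033 and 10127 at 6 h. The heat-induced HSP70 chaperone gene HSP70B had 823 and 1239 FPKM at 24 h of As(V) against 3402 and 3432 at 6 h. Their changes were -1.77 ± 0.16, -2.41 ± 0.19 and -1.76 ± 0.15. Of the chaperones of the plastid, HSP21 changed by -3.69 ± 0.13 and the disaggregase CLPB3 by -3.61 ± 0.08. The difference between these genes was not tested.

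Heat shock factors bind heat shock elements, here searched as GAANNTTC, which reads the same on both strands, in the 250 bases before each gene start of the TAIR10.1 RefSeq annotation. The letters occurred in 8 of the 29 heat shock promoters (27.6%) and in 9.45% of 26674 promoters of protein-coding genes. Over the classes above they occurred in 8.4% to 12% of promoters. The 3 heat shock promoters with at least 2 matches are shown because they hold the element more than once, with the matches in capitals.
HSP17.4A: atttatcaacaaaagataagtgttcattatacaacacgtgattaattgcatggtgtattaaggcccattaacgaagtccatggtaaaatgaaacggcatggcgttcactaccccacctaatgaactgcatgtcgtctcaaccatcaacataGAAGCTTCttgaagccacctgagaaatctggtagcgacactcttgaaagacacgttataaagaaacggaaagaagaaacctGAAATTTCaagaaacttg
HSFA2: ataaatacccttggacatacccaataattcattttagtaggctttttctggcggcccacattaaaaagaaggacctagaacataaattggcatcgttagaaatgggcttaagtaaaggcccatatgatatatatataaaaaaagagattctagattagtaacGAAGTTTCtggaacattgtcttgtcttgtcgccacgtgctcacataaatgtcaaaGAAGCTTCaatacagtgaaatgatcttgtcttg
HSFA7A: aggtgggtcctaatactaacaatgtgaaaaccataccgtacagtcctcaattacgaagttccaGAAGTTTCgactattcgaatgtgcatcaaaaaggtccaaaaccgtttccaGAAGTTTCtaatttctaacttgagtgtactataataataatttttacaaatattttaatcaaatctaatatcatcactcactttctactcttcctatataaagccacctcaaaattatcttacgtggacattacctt
These windows are chr3:16984868-16985117 on the minus strand, chr2:11135374-11135623 on the plus strand and chr3:19264891-19265140 on the plus strand. HSFA2 and HSP17.4A stayed above mock at 24 h by 4.39 and 8.78, whereas HSFA7A was at -0.11.

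Of 46 genes described as proteasome, 15 were higher and 21 lower at 24 h than at 6 h of As(V), near the 31.0% and 40.4% of all genes. Under every scaling 15 were higher and 3 lower. The median was -0.06 (1.14 with library totals, under which 40 were higher and 3 lower). At 24 h 43 were above mock and 0 below, with a median of 0.93, and at 6 h 38 were above and 3 below with a median of 0.95. RPT3 and FUS5, given next, were both lower at 24 h than at 6 h and do not stand for the list. RPT3, an ATPase of the proteasome's regulatory particle, had 583 and 748 FPKM at 24 h of As(V) against 2100 and 2072 at 6 h, and 154 and 145 FPKM in mock at 24 h and 139 and 134 at 6 h, and changed by -1.66 ± 0.09. FUS5, a subunit of the COP9 signalosome that the description places here, had 70.0 and 81.8 FPKM at 24 h of As(V) against 276 and 275 at 6 h. Of 16 autophagy genes 4 were higher and 12 lower, 7 under every scaling, with a median of -0.96 (0.26 with library totals, 8 higher and 7 lower). ATG8E and ATG8H are ubiquitin-like proteins that coat autophagosomes. ATG8E had 137 and 179 FPKM at 24 h of As(V) against 1492 and 1706 at 6 h. ATG8H had 175 and 223 FPKM at 24 h of As(V) against 1688 and 1619 at 6 h and returned, at -0.24 from mock, while ATG9, a membrane carrier, was still 0.7 above. NBR1, the receptor that brings protein aggregates to autophagosomes, outside the rule for named genes, had 817 and 1023 FPKM at 24 h of As(V) against 1499 and 1429 at 6 h, and 136 and 143 FPKM in mock at 24 h and 124 and 130 at 6 h. Its change was -0.68 ± 0.1, and 0.54 with library totals.

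The unfolded protein response of the endoplasmic reticulum split, with 8 higher and 9 lower of 18, beside 31.0% and 40.4% of all genes, and a median of -0.04 (1.15 with library totals, 14 higher and 4 lower). TIN1, induced by tunicamycin, had 43.6 and 54.1 FPKM at 24 h of As(V) against 841 and 866 at 6 h and changed by -4.11 ± 0.08. ERDJ3A, a J-domain cochaperone, changed by -3.65 ± 0.13, and BZIP60, a factor of this response, by -2.16 ± 0.14 with 73.7 and 86.2 FPKM at 24 h of As(V) against 376 and 344 at 6 h. BIP3 and NAC103, a chaperone and a factor that are targets of this pathway, are outside the rule for named genes. BIP3 had 4.2 and 4.1 FPKM at 24 h of As(V) against 0 and 0.323 at 6 h, and NAC103 had 5.46 and 5.95 FPKM at 24 h of As(V) against 0.221 and 0 at 6 h. Both were under 1 FPKM in every mock library of 24 h and 6 h. They were called above mock at 24 h and not at 6 h, and their changes between the times were 2.16 ± 0.41 and 2.6 ± 0.45.

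**Figure D3:**
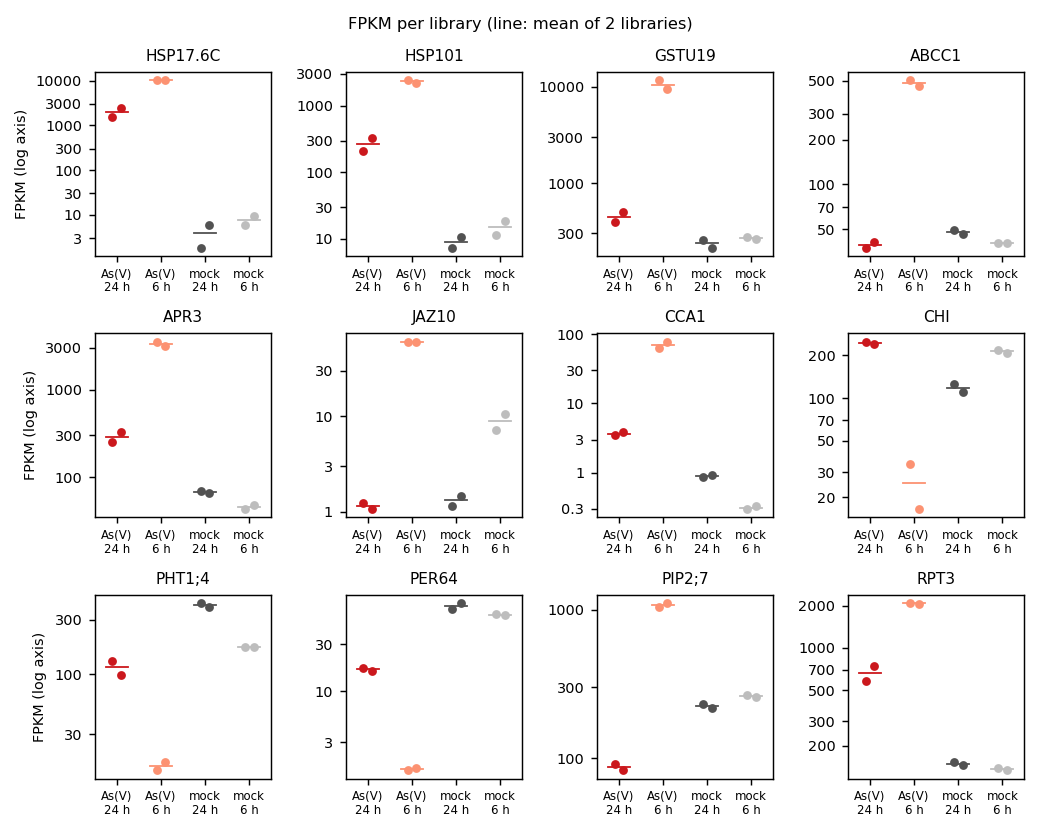
FPKM (vertical log axis) of 12 genes in each library of As(V) at 24 h and 6 h and of mock at 24 h and 6 h, left to right, with a line at the mean of 2 libraries. HSP17.6C, HSP101 and RPT3 lie above mock at both times, ABCC1 and JAZ10 only at 6 h, and PHT1;4 and PER64 lie below mock at both.

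The arsenic list holds the reductase HAC1, CDC25, channels, vacuolar transporters and, from arsenate responses, ASK18 and 2 WRKY factors. Of 14 tested, 2 were higher and 9 lower as deposited, 7 under every scaling, with a median of -1.54 (-0.33 with library totals, 5 higher and 7 lower). Against mock 5 were above and 7 below at 24 h, and 8 were above and 2 below at 6 h. Over all genes 30.9% were above and 35.3% below at 24 h, and 37.7% and 37.2% at 6 h. ABCC1 and ABCC2 are the vacuolar transporters of phytochelatin complexes. ABCC1 had 37.6 and 40.9 FPKM at 24 h of As(V) against 503 and 462 at 6 h. It had 49.4 and 46.1 FPKM in mock at 24 h and 40.6 and 40.6 at 6 h, and its distance from mock was -0.28 at 24 h and 3.54 at 6 h. ABCC2 had 52.0 and 64.0 FPKM at 24 h of As(V) against 591 and 582 at 6 h and was still above mock, by 0.91. HAC1, the arsenate reductase, had 167 and 187 FPKM at 24 h of As(V) against 601 and 565 at 6 h, and 216 and 229 FPKM in mock at 24 h and 241 and 246 at 6 h, a change of -1.72 ± 0.06 (adjusted p = 1.2e-09) that left it -0.33 from mock. ASK18, an SKP1-like subunit of ubiquitin ligases, had 21.9 and 25.7 FPKM at 24 h of As(V) against 450 and 422 at 6 h, a change of -4.15 ± 0.1, and lay 1.19 above mock. WRKY6, which represses phosphate transporter genes under arsenate, had 48.5 and 57.6 FPKM at 24 h of As(V) against 448 and 394 at 6 h and lay 0.56 above mock. NIP5;1, a boric acid channel of the family that passes arsenite, rose by 1.48 ± 0.17 and NIP1;1, an arsenite channel, fell by 1.35 ± 0.1 (-0.16, not called, with library totals), both outside the rule for named genes.

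Sulfate assimilation and the synthesis of glutathione and phytochelatins fell together, with 26 of 30 lower, 19 under every scaling, and 2 higher (median -1.77, and -0.57 with library totals, 7 higher and 19 lower). Against mock, 15 were higher and 10 lower at 24 h, and 24 were higher and 4 lower at 6 h. SERAT2;1, a serine acetyltransferase of cysteine synthesis, had 85.1 and 101 FPKM at 24 h of As(V) against 1416 and 1476 at 6 h and changed by -3.95 ± 0.08 (adjusted p = 5.6e-11). APR3 and APR1, reductases of activated sulfate, changed by -3.54 ± 0.11 and -3.4 ± 0.08. APR3 had 249 and 324 FPKM at 24 h of As(V) against 3530 and 3114 at 6 h, and 69.5 and 65.0 FPKM in mock at 24 h and 43.3 and 47.6 at 6 h. It was still 2.06 above mock at 24 h. APR1 returned, at 0.34, but was still called above mock (adjusted p = 0.005). GSH1, the first enzyme of glutathione synthesis, had 99.9 and 101 FPKM at 24 h of As(V) against 498 and 476 at 6 h, and 110 and 113 FPKM in mock at 24 h and 137 and 133 at 6 h, and returned at -0.16. PCS1, phytochelatin synthase, had 26.4 and 30.5 FPKM at 24 h of As(V) against 118 and 124 at 6 h, and 56.2 and 77.0 FPKM in mock at 24 h and 46.9 and 50.4 at 6 h. It crossed mock, with a distance of -1.19 at 24 h and 1.3 at 6 h. The cysteine-rich metallothioneins fell in 4 of 4 genes as deposited, 1 of them, MT2A, under every scaling. MT2A had 327 and 385 FPKM at 24 h of As(V) against 1618 and 1549 at 6 h and was 2.65 above mock.

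Most glutathione transferases and other detoxification genes were lower as deposited. Among 33 tau and phi glutathione transferases 20 were lower, 13 under every scaling, and 3 higher, with a median of -0.76 (0.33 with library totals, 12 higher and 13 lower). GSTU19, GSTU11 and GSTU7 changed by -4.56 ± 0.14, -3.82 ± 0.15 and -3.71 ± 0.1. GSTU19 had 392 and 497 FPKM at 24 h of As(V) against 11674 and 9370 at 6 h, and 259 and 214 FPKM in mock at 24 h and 278 and 264 at 6 h, which left it 0.9 above mock. GSTU17 went the other way outside the rule for named genes, with 91.6 and 83.5 FPKM at 24 h of As(V) against 25.2 and 15.1 at 6 h, a rise of 2.11 ± 0.27. It overlaps GSTU18 on the same strand, so its reads are uncertain. Of 11 other detoxification genes 10 were lower under every scaling, with a median of -3.62 (-2.4 with library totals, 1 higher and 10 lower), and 10 were above mock at 24 h. CYP81D8 had 59.6 and 81.3 FPKM at 24 h of As(V) against 1499 and 1368 at 6 h, and 1.55 and 5.7 FPKM in mock at 24 h and 1.64 and 2.25 at 6 h. The UDP-glycosyltransferases, read from descriptions, had 34 higher and 43 lower of 91, beside 31.0% and 40.4% of all genes (median -0.02, and 0.98 with library totals, 56 higher and 24 lower). UGT85A1 and UGT73B3 changed by -4.11 ± 0.16 and -3.8 ± 0.1 and stayed above mock by 1.85 and 1.57.

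Most genes of redox balance and of alternative respiration were lower as deposited. Of 17 genes that remove reactive oxygen, 11 were lower, 6 under every scaling, and 1 higher, with a median of -1.31 (-0.09 with library totals, 8 higher and 6 lower). DHAR2, which regenerates ascorbate, had 102 and 135 FPKM at 24 h of As(V) against 2113 and 1781 at 6 h and changed by -4.04 ± 0.12. APX2, an ascorbate peroxidase under heat shock control, had 45.1 and 54.9 FPKM at 24 h of As(V) against 498 and 485 at 6 h, and 0.147 and 0.254 FPKM in mock at 24 h and 0.0856 and 0.703 at 6 h. CAT1, a catalase, returned, with 9.57 and 9.55 FPKM at 24 h of As(V) against 75.4 and 90.0 at 6 h, and 6.79 and 6.49 FPKM in mock at 24 h and 7.28 and 7.95 at 6 h. GR1, the cytosolic glutathione reductase and outside the rule for named genes, did not change detectably (0.05; 1.27 with library totals) and stayed 1.59 above mock, with 383 and 428 FPKM at 24 h of As(V) against 400 and 380 at 6 h. In the mitochondrial stress list 7 of 10 were lower and 2 higher, with a median of -1.82 (-0.6 with library totals, 3 higher and 5 lower). AOX1D, an alternative oxidase, had 0.674 and 0.834 FPKM at 24 h of As(V) against 23.9 and 22.9 at 6 h. NDB2, an external NADH dehydrogenase, had 135 and 164 FPKM at 24 h of As(V) against 1384 and 1161 at 6 h. OM66, an outer membrane protein, had 13.1 and 11.1 FPKM at 24 h of As(V) against 79.9 and 90.5 at 6 h. NDB2 was still 1.93 above mock, while OM66 lay at -1.01.

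Jasmonate genes fell in all 13 cases, 9 under every scaling, with a median of -2.16 (-1.21 with library totals, 0 higher and 9 lower). In mock 8 of them were also lower at 24 h than at 6 h and 1 was higher, with a median of -0.89, and for 10 of the 13 the change in As(V) was called lower than that in mock. JAZ10, a repressor that jasmonate itself induces, had 1.22 and 1.07 FPKM at 24 h of As(V) against 60.3 and 59.4 at 6 h, and 1.16 and 1.46 FPKM in mock at 24 h and 7.2 and 10.6 at 6 h, a change of -4.82 ± 0.25 (adjusted p = 2.5e-08). JAZ1 and JAZ7, repressors of the same family, changed by -2.99 ± 0.18 and -2.68 ± 0.34. At 24 h 0 of the 13 were above mock and 8 below. Of 12 ethylene genes 4 were higher and 7 lower, beside 31.0% and 40.4% of all genes, with a median of -0.84 (0.22 with library totals, 6 higher and 3 lower). ACS7, an enzyme that makes the precursor of ethylene, had 7.49 and 10.2 FPKM at 24 h of As(V) against 73.9 and 79.0 at 6 h. ERF6, an ethylene response factor, had 75.2 and 92.4 FPKM at 24 h of As(V) against 623 and 659 at 6 h. ACO1, which makes ethylene from that precursor, rose, with 72.5 and 69.0 FPKM at 24 h of As(V) against 19.0 and 13.5 at 6 h and a change of 2.08 ± 0.26. WRKY factors had 6 higher and 32 lower of 54, 18 lower under every scaling, with a median of -1.0 (0.18 with library totals, 19 higher and 18 lower). WRKY75, a factor of phosphate starvation and defence, had 21.7 and 34.5 FPKM at 24 h of As(V) against 375 and 342 at 6 h and returned. WRKY33, a factor of defence against fungi, had 51.6 and 59.7 FPKM at 24 h of As(V) against 518 and 554 at 6 h, and lay -0.78 from mock, where the mock libraries of 24 h differed, at 64.0 and 143 FPKM.

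Energy starvation genes fell in all 12 cases tested, 11 under every scaling, with a median of -2.43 (-1.24 with library totals, 0 higher and 11 lower), and in mock 8 of them fell too, with a median of -0.7. In 9 of the 12 the change in As(V) was called lower than that in mock. BZIP1, a factor of the low-energy response, had 35.0 and 33.3 FPKM at 24 h of As(V) against 496 and 506 at 6 h, and 1.97 and 2.53 FPKM in mock at 24 h and 8.9 and 8.99 at 6 h. DIN10, a raffinose synthase family gene, had 79.1 and 103 FPKM at 24 h of As(V) against 1033 and 1206 at 6 h, and 35.9 and 46.3 FPKM in mock at 24 h and 174 and 206 at 6 h. DIN9, a mannose-6-phosphate isomerase gene, changed by -3.49 ± 0.11. All 3 stayed above mock at 24 h, by 3.44, 1.12 and 1.01.

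Clock genes moved in both directions, as all genes did. Of 16, 5 were higher and 8 lower, 6 under every scaling, beside 31.0% and 40.4% of all genes. Their median was -0.27 (0.66 with library totals, 9 higher and 6 lower). PRR7, RVE1 and CCA1, a pseudo-response regulator and a pair of Myb-like factors, are clock genes of the morning. PRR7 had 7.57 and 8.11 FPKM at 24 h of As(V) against 152 and 150 at 6 h. RVE1 had 7.48 and 12 FPKM at 24 h of As(V) against 170 and 169 at 6 h. CCA1 had 3.46 and 3.9 FPKM at 24 h of As(V) against 63.5 and 78.0 at 6 h. Their changes were -4.11 ± 0.1, -4.04 ± 0.17 and -3.94 ± 0.13, while the mock roots of both times stayed under 6 FPKM for each. At 24 h all 3 were still above mock, by 0.6, 1.63 and 1.3. LHY, the closest relative of CCA1 and outside the rule for named genes, had 1.23 and 1.6 FPKM at 24 h of As(V) against 1.73 and 1.19 at 6 h, a change of -0.03 ± 0.18 (0.64 with library totals). TOC1, which CCA1 represses, had 45.9 and 46.8 FPKM at 24 h of As(V) against 35.0 and 34.3 at 6 h, and 37.1 and 38.4 FPKM in mock at 24 h and 37.1 and 37.1 at 6 h, a change of 0.41 ± 0.06 (adjusted p = 0.00017). The evening element bound by CCA1, searched as AAAATATCT on both strands, occurred in 5 of 16 clock promoters (31.2%) and in 2.4% of all promoters. Promoters of 3 of these 5 are shown, chosen after their values were seen: PRR5 and LUX fell alike, and TOC1 rose slightly. BOA and FKF1 hold the letters too and are not shown.
PRR5: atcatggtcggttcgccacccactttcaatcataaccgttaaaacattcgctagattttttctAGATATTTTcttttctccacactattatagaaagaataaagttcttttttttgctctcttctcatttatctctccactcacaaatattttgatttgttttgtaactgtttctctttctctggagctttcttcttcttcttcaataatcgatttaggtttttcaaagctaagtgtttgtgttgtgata
LUX: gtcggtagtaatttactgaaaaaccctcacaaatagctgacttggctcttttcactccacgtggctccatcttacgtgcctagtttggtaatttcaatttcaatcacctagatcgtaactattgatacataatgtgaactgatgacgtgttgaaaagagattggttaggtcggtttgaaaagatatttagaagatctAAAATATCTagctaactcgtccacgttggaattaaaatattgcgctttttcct
TOC1: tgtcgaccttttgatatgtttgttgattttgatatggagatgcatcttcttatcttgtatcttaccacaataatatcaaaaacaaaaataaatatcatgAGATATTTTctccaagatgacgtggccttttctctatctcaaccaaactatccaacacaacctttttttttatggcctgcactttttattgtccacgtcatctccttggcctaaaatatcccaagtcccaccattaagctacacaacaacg
The windows are chr5:8358547-8358796 on the minus strand, chr3:17182792-17183041 on the plus strand and chr5:24674713-24674962 on the plus strand, with the element in capitals, read on the opposite strand in PRR5 and TOC1. PRR5 and LUX, a pseudo-response regulator and a part of the evening complex, fell by 2.44 ± 0.09 and 2.41 ± 0.09. PRR5 had 20.9 and 25.3 FPKM at 24 h of As(V) against 125 and 132 at 6 h. LUX had 97.2 and 122 FPKM at 24 h of As(V) against 582 and 584 at 6 h.

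Phosphate transporter genes named here rose in As(V), and 29 of 33 phosphate genes were below mock at 24 h. In As(V) 18 of 33 were higher and 11 lower at 24 h than at 6 h, 18 and 3 under every scaling, with a median of 0.77 (1.78 with library totals, 27 higher and 3 lower). In mock, which also lacked phosphate, 27 were higher and 1 lower, with a median of 1.08. Against mock 3 were higher and 29 lower at 24 h, with a median of -1.73, and 5 were higher and 23 lower at 6 h, with a median of -1.07. The transporter PHT1;4 had 132 and 99.1 FPKM at 24 h of As(V) against 14.5 and 17.0 at 6 h, and 422 and 386 FPKM in mock at 24 h and 174 and 172 at 6 h, a change of 2.79 ± 0.2 (adjusted p = 3.1e-07). PHT1;1 and PHT1;2, transporters of the same family, changed by 1.18 ± 0.09 and 2.93 ± 0.35, but 41.5% of the 50-base windows of each occur elsewhere in the genome, so reads may be split between them. In mock PHT1;4 and PHT1;2 rose as well, by 1.22 ± 0.13 and 2.1 ± 0.16. The change in As(V) minus that in mock was called for PHT1;4 (1.57, adjusted p = 0.00018) and not for PHT1;2 (0.82, adjusted p = 0.085). PHO1;H1, a phosphate exporter, had 11.6 and 10.2 FPKM at 24 h of As(V) against 0.382 and 0.181 at 6 h, and 44.3 and 42.3 FPKM in mock at 24 h and 20.6 and 18.9 at 6 h. SPX1, a phosphate sensor, had 271 and 230 FPKM at 24 h of As(V) against 60.9 and 67.3 at 6 h, and 939 and 943 FPKM in mock at 24 h and 468 and 507 at 6 h, with a change of 1.95 ± 0.11.

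Other phosphate genes rose in mock and not in As(V) as deposited. Chosen after their values were seen, IPS1, a noncoding RNA that sequesters miR399, had 106 and 94.0 FPKM at 24 h of As(V) against 157 and 193 at 6 h, and 1510 and 1608 FPKM in mock at 24 h and 293 and 290 at 6 h. SQD2, of sulfolipid synthesis, had 26.6 and 29.6 FPKM at 24 h of As(V) against 36.0 and 49.8 at 6 h, and 419 and 398 FPKM in mock at 24 h and 133 and 149 at 6 h, and MGD3, of galactolipid synthesis, had 19.9 and 14.5 FPKM at 24 h of As(V) against 14.6 and 25.9 at 6 h, and 170 and 163 FPKM in mock at 24 h and 23.9 and 32.0 at 6 h. Their changes in As(V) were -0.79 ± 0.14, -0.58 ± 0.13 and -0.18 ± 0.25 as deposited, and 0.42, 0.61 and 0.96 with library totals. For each of these 3 the change in As(V) as deposited was called lower than that in mock, and at 24 h they lay -3.95, -3.82 and -3.21 from mock, against -0.74, -1.71 and -0.49 at 6 h. The P1BS element of PHR1, the main factor of phosphate starvation, searched as GNATATNC, again the same on both strands, occurred in 9 of 33 phosphate promoters (27.3%) and in 5.44% of all promoters. Both promoters with 2 matches are shown.
SPX3: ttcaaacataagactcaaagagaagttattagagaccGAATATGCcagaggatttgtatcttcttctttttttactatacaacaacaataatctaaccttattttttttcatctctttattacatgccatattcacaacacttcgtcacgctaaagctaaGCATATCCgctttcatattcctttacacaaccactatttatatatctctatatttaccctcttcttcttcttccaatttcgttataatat
GDPD1: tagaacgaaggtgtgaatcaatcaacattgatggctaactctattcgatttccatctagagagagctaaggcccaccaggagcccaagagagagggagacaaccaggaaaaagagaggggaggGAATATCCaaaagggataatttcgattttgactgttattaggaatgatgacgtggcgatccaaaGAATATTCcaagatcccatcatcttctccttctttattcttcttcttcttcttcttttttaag
They are chr2:18606160-18606409 on the plus strand and chr3:350011-350260 on the minus strand, with the matches in capitals, and the second match in GDPD1 also fits the letters searched for the heat shock element. SPX3, a further sensor, had 14.6 and 10.7 FPKM at 24 h of As(V) against 3.6 and 2.78 at 6 h, and 211 and 197 FPKM in mock at 24 h and 18.5 and 21.3 at 6 h. GDPD1, a glycerophosphodiesterase, had 144 and 119 FPKM at 24 h of As(V) against 167 and 193 at 6 h, and 491 and 484 FPKM in mock at 24 h and 219 and 241 at 6 h. GDPD1 changed by -0.45 ± 0.1, and by 0.76 with library totals. At 24 h their distances from mock were -3.91 and -1.89.

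IRT1 and FRO2, the iron transporter and the ferric reductase of the root, rose in mock and were not called in As(V), and were picked outside the rule for named genes. IRT1 had 5.22 and 5.64 FPKM at 24 h of As(V) against 5.42 and 8.58 at 6 h, not called as deposited or with library totals, and 84.4 and 90.5 FPKM in mock at 24 h and 1.37 and 0.777 at 6 h. FRO2 had 1.25 and 1.19 FPKM at 24 h of As(V) against 2.25 and 4.9 at 6 h, not called, and 40.2 and 45.3 FPKM in mock at 24 h and 1.24 and 1.05 at 6 h. The change in As(V) minus that in mock was -5.73 ± 0.71 for IRT1 (adjusted p = 4.6e-05) and -5.34 ± 0.68 for FRO2 (adjusted p = 5.7e-05). The iron list had 6 higher and 5 lower of 19 in As(V), beside 31.0% and 40.4% of all genes. Its median was 0.07 (1.05 with library totals, 12 higher and 4 lower). In mock the list had 10 higher and 4 lower, with a median of 0.62. BHLH38 and BHLH39, factors that induce iron uptake, rose in both. BHLH38 had 19.0 and 29.1 FPKM at 24 h of As(V) against 0.679 and 0.645 at 6 h, and 21.2 and 19.0 FPKM in mock at 24 h and 3.1 and 2.66 at 6 h. BHLH39 had 38.4 and 45.5 FPKM at 24 h of As(V) against 4.52 and 4.05 at 6 h, and 15.1 and 15.8 FPKM in mock at 24 h and 5.0 and 6.28 at 6 h. Its change in As(V) minus that in mock was 1.71 ± 0.26 (adjusted p = 0.0002), and it lay 1.38 above mock at 24 h. BTS, which marks iron-uptake regulators for removal, had 53.9 and 61.7 FPKM at 24 h of As(V) against 395 and 381 at 6 h, and 14.3 and 16.9 FPKM in mock at 24 h and 14.0 and 12.1 at 6 h.

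**Figure D4:**
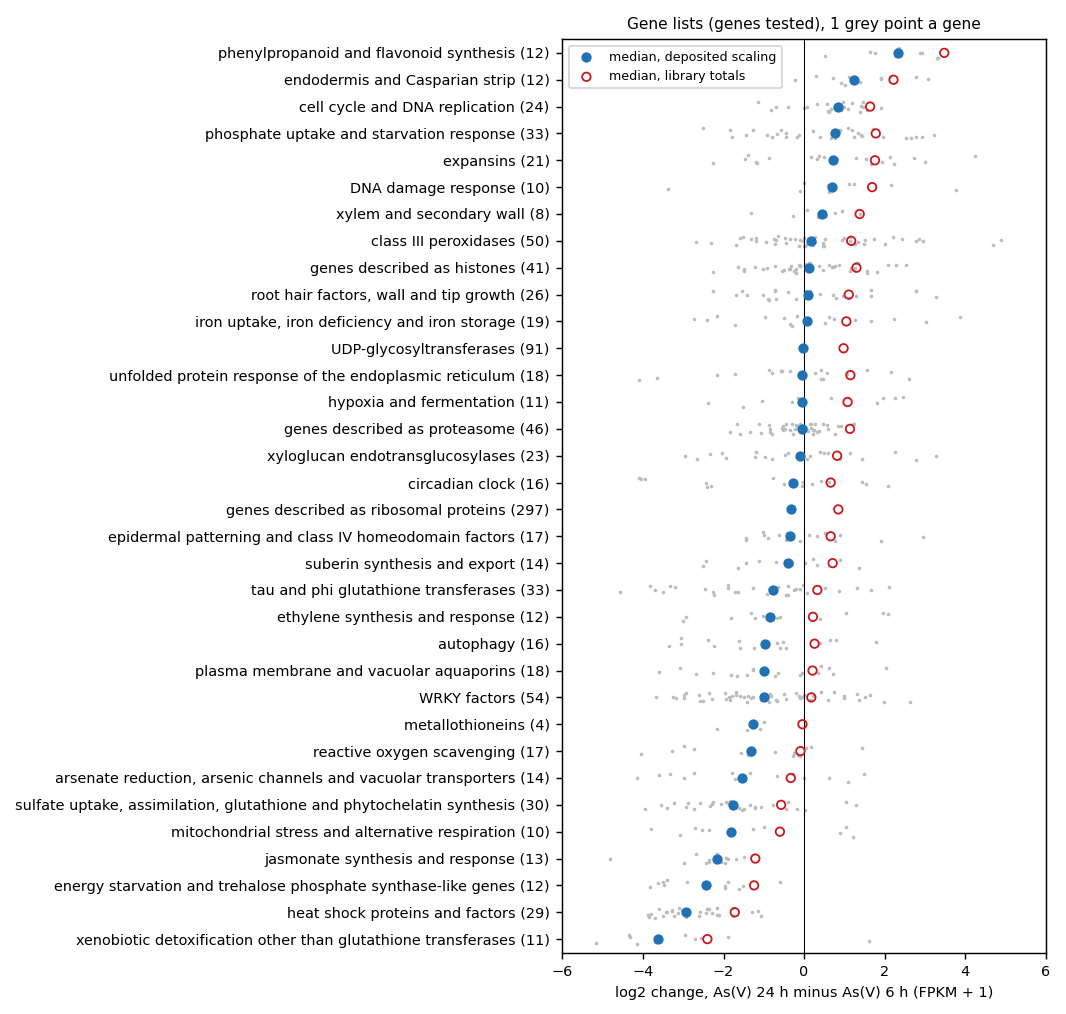
Log2 change between 24 h and 6 h of As(V) (horizontal axis) for each gene list or family (vertical axis, number of genes tested in brackets), with grey points for genes, filled circles for the median as deposited and open circles for the median with library totals; single genes are not drawn for the UDP-glycosyltransferases and the ribosomal proteins. The medians run from 2.32 for phenylpropanoid and flavonoid genes to -3.62 for detoxification genes other than glutathione transferases, and library totals move every median up.

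Genes of flavonoid synthesis rose, with 11 of 12 genes higher under every scaling and 1 lower, and a median of 2.32 (3.48 with library totals, 11 higher and 1 lower). At 24 h 4 were above mock and 3 below, near the 30.9% and 35.3% of all genes. At 6 h 1 was above and 11 below, beside 37.7% and 37.2% of all genes. TT7, a flavonoid hydroxylase, had 21.2 and 16.8 FPKM at 24 h of As(V) against 1.38 and 0.653 at 6 h, and 43.6 and 36.8 FPKM in mock at 24 h and 71.8 and 69.8 at 6 h, a change of 3.33 ± 0.48 (adjusted p = 0.0001). CHI, chalcone isomerase, had 250 and 241 FPKM at 24 h of As(V) against 34.2 and 16.6 at 6 h, and 126 and 111 FPKM in mock at 24 h and 218 and 208 at 6 h, and passed mock, at 1.05 against -3.11 at 6 h. CHS, chalcone synthase, outside the rule for named genes, had 1366 and 1309 FPKM at 24 h of As(V) against 243 and 136 at 6 h, and 1449 and 1364 FPKM in mock at 24 h and 1809 and 1888 at 6 h. UGT84A1, which glycosylates hydroxycinnamates, rose by 2.92 ± 0.34. The single gene that fell was C4H, cinnamate hydroxylase, with 661 and 686 FPKM at 24 h of As(V) against 2019 and 1806 at 6 h.

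Genes of the endodermis and its Casparian strip mostly rose but stayed under mock. More suberin genes fell than rose as deposited, as was so over all genes. Of 12 genes of the endodermis and its Casparian strip 10 were higher under every scaling and 0 lower, with a median of 1.25 (2.22 with library totals, 12 higher and 0 lower), and all 12 were below mock at 24 h, with a median of -1.45, against 11 at 6 h, with a median of -2.43. PER64, the peroxidase that lignifies the strip, had 17.4 and 16.2 FPKM at 24 h of As(V) against 1.56 and 1.63 at 6 h, and 69.2 and 79.4 FPKM in mock at 24 h and 60.9 and 59.4 at 6 h, a change of 2.78 ± 0.31. SGN1, a kinase of barrier surveillance, had 14.2 and 14.1 FPKM at 24 h of As(V) against 2.44 and 2.43 at 6 h. In roots sequenced whole, fewer cells of a type and less RNA per cell cannot be told apart. Suberin genes had 2 higher and 7 lower of 14, beside 31.0% and 40.4% of all genes. Their median was -0.39 (0.71 with library totals, 9 higher and 2 lower), and 13 were below mock at 24 h. KCS20 and ABCG20 lengthen and export suberin monomers. KCS20 had 24.2 and 25.3 FPKM at 24 h of As(V) against 137 and 155 at 6 h. ABCG20 had 9.6 and 12.2 FPKM at 24 h of As(V) against 68.5 and 57.3 at 6 h. They lay at -0.97 and -1.62 against mock at 24 h. FAR4, a reductase that makes suberin alcohols, rose by 1.36 ± 0.18. In mock 12 of the 14 suberin genes were higher at 24 h than at 6 h.

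In the epidermis, GL2, the factor that keeps non-hair cells hairless, did not change detectably between the times, with 3.24 and 3.39 FPKM at 24 h of As(V) against 3.02 and 2.87 at 6 h and a change of 0.13 ± 0.16 (adjusted p = 0.48; 1.01, adjusted p = 8.7e-05, with library totals). It lay -0.73 from mock at 24 h and -1.39 at 6 h, and it overlaps a gene on the same strand. Its relative ANL2 had 10.8 and 11.3 FPKM at 24 h of As(V) against 30.6 and 33.0 at 6 h, and 7.14 and 7.03 FPKM in mock at 24 h and 11.5 and 10.6 at 6 h, and changed by -1.44 ± 0.08 (adjusted p = 3e-08; -0.28 with library totals). Of 17 patterning genes 4 were higher and 7 lower, beside 31.0% and 40.4% of all genes, with a median of -0.36 (0.66 with library totals, 11 higher and 2 lower). ETC1, a Myb protein that promotes hair fate, had 9.05 and 11.2 FPKM at 24 h of As(V) against 0.441 and 0.418 at 6 h. SCM, the receptor kinase that positions hair cells, had 9.73 and 9.07 FPKM at 24 h of As(V) against 1.51 and 2.01 at 6 h. Root hair genes had 11 higher and 11 lower of 26, beside 31.0% and 40.4% of all genes, and 11 and 3 under every scaling. Their median was 0.09 (1.11 with library totals, 20 higher and 3 lower), and 22 were below mock at 24 h. XTH13 and XTH12 are wall enzymes of the hair. XTH13 had 22.6 and 11.4 FPKM at 24 h of As(V) against 1.23 and 0.467 at 6 h. XTH12 had 21.8 and 14.5 FPKM at 24 h of As(V) against 1.31 and 2.31 at 6 h. PRP1, a wall protein, had 60.2 and 46.6 FPKM at 24 h of As(V) against 6.84 and 7.07 at 6 h. The call of XTH13 was lost without replicate 1 of 6 h (3.57, adjusted p = 0.066). CSLD3, needed for hair tip growth, fell by 2.26 ± 0.06 outside the rule for named genes, with 34.4 and 38.9 FPKM at 24 h of As(V) against 183 and 175 at 6 h, and 37.6 and 38.3 FPKM in mock at 24 h and 38.3 and 38.9 at 6 h.

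Aquaporins had 3 higher and 11 lower of 18, 6 lower under every scaling, with a median of -0.99 (0.21 with library totals, 9 higher and 6 lower). PIP2;7 and PIP1;3 are water channels of the plasma membrane. PIP2;7 had 92.0 and 83.2 FPKM at 24 h of As(V) against 1050 and 1114 at 6 h. PIP1;3 had 87.7 and 96.3 FPKM at 24 h of As(V) against 757 and 822 at 6 h. Their distances from mock were -1.35 and -1.11 at 24 h, against 2.04 and 1.53 at 6 h. PIP2;4 was below at both times, with 3.2 and 3.18 FPKM at 24 h of As(V) against 29.9 and 22.4 at 6 h, and 67.3 and 60.1 FPKM in mock at 24 h and 65.7 and 70.1 at 6 h. At 24 h 17 of the 18 were below mock and 0 above.

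Expansins, which loosen walls, were mostly higher. Of 21 expansins 12 were higher and 6 lower, 12 and 2 under every scaling, with a median of 0.73 (1.76 with library totals, 15 higher and 2 lower). EXLB1 had 116 and 94.6 FPKM at 24 h of As(V) against 3.97 and 5.3 at 6 h, and 71.1 and 57.8 FPKM in mock at 24 h and 31.8 and 33.8 at 6 h, a change of 4.24 ± 0.39, and EXPA4 had 45.1 and 45.7 FPKM at 24 h of As(V) against 5.65 and 6.31 at 6 h. EXLA2 went down, with 1.83 and 1.69 FPKM at 24 h of As(V) against 12.1 and 12.2 at 6 h. Class III peroxidases had 16 higher and 13 lower of 50, beside 31.0% and 40.4% of all genes, with a median of 0.18 (1.17 with library totals, 35 higher and 5 lower). At 24 h 43 of them were below mock. Of 23 xyloglucan endotransglucosylases 5 were higher and 11 lower, beside 31.0% and 40.4% of all genes. Their median was -0.11 (0.82 with library totals, 13 higher and 5 lower). XTH24 had 14.7 and 17.1 FPKM at 24 h of As(V) against 124 and 134 at 6 h and returned, at 0.44 from mock. XTH31, which acts on wall xyloglucan, had the widest gap from mock at 6 h among genes that stayed low, with 43.2 and 34.7 FPKM at 24 h of As(V) against 1.8 and 2.42 at 6 h, and 441 and 461 FPKM in mock at 24 h and 487 and 460 at 6 h.

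Most genes of the cell cycle and DNA replication list rose, while most of the list was below mock at both times. Against mock, 6 of 24 were above and 15 below at 24 h, with a median of -0.74, and 2 were above and 21 below at 6 h. Of these 24 cell cycle genes 14 were higher, all under every scaling, and 3 lower as deposited, with a median of 0.83 (1.64 with library totals, 22 higher and 0 lower). Under the rule for named genes the largest changes of the list were those of MCM6, MCM5 and MCM3, subunits of the replicative helicase. They were 1.9 ± 0.28, 1.56 ± 0.19 and 1.47 ± 0.21. MCM6 had 10.2 and 10.5 FPKM at 24 h of As(V) against 2.24 and 1.86 at 6 h, and 7.78 and 5.07 FPKM in mock at 24 h and 7.29 and 7.5 at 6 h, and was 0.63 above mock at 24 h and -1.47 from it at 6 h. CYCB1;2, a mitotic cyclin outside the rule for named genes, rose and stayed below mock. It had 4.74 and 4.38 FPKM at 24 h of As(V) against 0.652 and 1.44 at 6 h, and 16.6 and 12.6 FPKM in mock at 24 h and 14.7 and 14.0 at 6 h. Of 10 DNA damage genes 7 were higher and 1 lower, with a median of 0.7 (1.69 with library totals, 9 higher and 1 lower). SMR7, an inhibitor of cyclin-dependent kinases, was listed at 0 in both 6 h libraries and had 12.1 and 13.5 FPKM at 24 h. The mock libraries of 24 h had 6.15 and 7.08 FPKM. SMR5, of the same family, moved the other way, with 45.0 and 47.0 FPKM at 24 h of As(V) against 476 and 495 at 6 h, and 22.6 and 12.6 FPKM in mock at 24 h and 11.2 and 7.27 at 6 h. TSO2, a subunit of ribonucleotide reductase, had 36.4 and 40.5 FPKM at 24 h of As(V) against 7.33 and 8.29 at 6 h and returned. Genes described as histones had 18 higher and 13 lower of 41, beside 31.0% and 40.4% of all genes. Their median was 0.11 (1.3 with library totals, 33 higher and 4 lower). The histone gene AT5G10390 had 20.2 and 17.5 FPKM at 24 h of As(V) against 2.89 and 3.35 at 6 h. AT3G45930 had 25.7 and 19.8 FPKM at 24 h of As(V) against 4.49 and 2.13 at 6 h, but shares 26.2% of its 50-base windows with other loci.

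Genes described as ribosomal proteins had 52 higher and 169 lower of 297, with a median of -0.32, but with library totals 264 were higher and 12 lower, with a median of 0.85. In mock 2 were higher and 200 lower, with a median of -0.38. RPL10B, a protein of the large subunit, had 59.9 and 55.3 FPKM at 24 h of As(V) against 773 and 687 at 6 h, and 29.5 and 27.3 FPKM in mock at 24 h and 39.2 and 38.3 at 6 h, and changed by -3.64 ± 0.07.

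Low-oxygen genes were split. Of 11 hypoxia genes 4 were higher and 2 lower, beside 31.0% and 40.4% of all genes, with a median of -0.05 (1.08 with library totals, 7 higher and 2 lower). SAD6, a desaturase, had 47.1 and 48.5 FPKM at 24 h of As(V) against 9.64 and 6.48 at 6 h. HB1, a hemoglobin, had 168 and 196 FPKM at 24 h of As(V) against 35.1 and 39.0 at 6 h. Their calls were lost without either 6 h replicate (adjusted p = 0.087 and 0.1 for SAD6, 0.055 and 0.054 for HB1). SUS1, sucrose synthase, had 109 and 120 FPKM at 24 h of As(V) against 522 and 688 at 6 h and was 1.03 above mock. PCO2, which marks low-oxygen factors for removal, had 27.2 and 24.5 FPKM at 24 h of As(V) against 7.13 and 6.18 at 6 h, and its call (adjusted p = 0.022) was lost in 6 of 14 alternatives (adjusted p = 0.051 to 0.15), those with voom, either other filter, replicate 1 of 24 h left out or either replicate of 6 h left out. The call of AT4G33560, a wound-responsive gene with 38.8 and 46.3 FPKM at 24 h of As(V) against 5.67 and 3.91 at 6 h, was lost without either 6 h replicate (adjusted p = 0.088 and 0.094). Of 8 xylem genes 4 were higher and 2 lower, beside 31.0% and 40.4% of all genes. Their median was 0.45 (1.38 with library totals, 7 higher and 0 lower), and all 8 were below mock at 24 h. ACL5, which makes thermospermine, and CESA4 and LAC4, of secondary wall cellulose and lignin, changed by 1.4 ± 0.2, 0.95 ± 0.15 and 0.76 ± 0.12.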

How the data were processed

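Whole-root mRNA was sequenced as stranded single-end libraries with reads of 50 bases, per the labels' protocols. Per the submitters' processing notes, Trim Galore, STAR 2.5.4, HTSeq 0.6.0, edgeR and TAIR10 were used, and the strand setting, the scaling formula and the annotation release are not given in the sources used here. The authors deposited FPKM values per gene, and no counts were used. Reads were estimated from the steps of low FPKM values, exon lengths and a length offset of 204 bases, and give depths of 13.22 to 16.8 M per library, so they carry the error of that estimate.

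All 12 libraries entered 1 limma fit (limma 3.58.1, R 4.3.3) of log2(FPKM + 1), with 1 coefficient for each of 6 groups, precision weights from the estimated reads, robust variance moderation and Benjamini-Hochberg adjustment over 19897 genes with at least 1 FPKM in 2 libraries and at least 10 estimated reads. The comparisons were 24 h with 6 h in As(V), the same in mock, their difference, and As(V) with mock at each time. The first shares libraries with the last, so their values stand side by side and neither supports the other. The alternatives were 2 scalings, 2 pseudocounts, 2 filters, no weights, voom on the estimated reads, fewer libraries, a replicate block and each library left out.

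Named genes are the 8 highest and 8 lowest changes with the same call under 3 scalings, no overlap between groups and a mean of at least 5 FPKM; the 3 largest so defined of each of 28 lists and 8 families; the 5 largest 6 h changes of each class; and a fixed set of arsenic, phosphate, heat shock, clock and epidermal genes. Members and lists were chosen with earlier results of these data known. Gene names, positions and promoters come from the RefSeq annotation of TAIR10.1, which paired 32810 of 33557 genes, and sequences are credited to it. Reads of genes that overlap another on the same strand are uncertain, among them AT5G65609, GL2, GSTU17, RPT3, CBL1, TSO2, GR1 and CESA4. Of 720 genes searched, 26 had such an overlap and 161 overlapped a gene on the opposite strand. The latter, HSP101, APR3 and PER64 among them, are uncertain too, since the counting strand is not known. One gene that the rule names is not reported here.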

Additional observations from a re-analysis of the deposited data

Results flagged for a closer look

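The change between 24 h and 6 h differed between As(V) and mock, by the test of the difference itself, with a higher change in As(V) for 5218 genes and a lower one for 6900. Values below are the change in As(V) minus the change in mock on the log2 scale, for the named genes called in opposite directions in As(V) and mock with a called difference. Among detoxification, sulfur and transport genes it was -4.6 for SERAT2;1, -4.1 for APR3, -2.49 for PCS1, -3.81 for ABCC1, -5.57 for SUFE2 and -4.49 for CAX4. For signalling and stress factors it was -4.68 for CBL1, -4.48 for AT4G00940, -4.48 for WRKY75, -3.83 for WRKY15, another WRKY factor, -4.57 for CEJ1, named for its regulation by ethylene and jasmonate, and -4.56 for PRR7. It was -3.53 for NDB2, -3.31 for ATG9 and -5.47 for AT5G07870. AT5G64401 had -7.83, on few reads.

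Wall and barrier genes in this group had -2.78 for KCS20, -3.06 for ABCG20 and -3.56 for XTH24. The flavonoid genes went the other way, with 4.14 for TT7, 4.16 for CHI and 3.95 for UGT84A1. Positive differences were also found for the lipid-transfer protein gene AT1G48750 at 5.5 and the peroxidase gene AT2G41480 at 5.65, both listed at 0 in the 6 h libraries of As(V), so that these values depend on the pseudocount. The same holds for AT1G68238 at 4.39. The histone gene AT3G45930 had 2.94, PCO2, whose change in As(V) lost its call in 6 of 14 alternatives, had 2.81 and AT5G04960, of the pectin methylesterase and inhibitor genes, had 3.32.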

How the results depend on the processing

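Scaling moved the counts most. With library totals, 12792 genes were higher and 3001 lower between 24 h and 6 h of As(V), and the change was higher than that in mock for 12054 and lower for 2705. Of genes higher at 6 h by at least 1, 497 were then not called at 24 h, 642 stayed higher by less than 1, 108 were below mock and 601 returned. Of those lower at 6 h, 3061 were not called, 2519 stayed lower by less than 1, 2079 were above mock and 4759 returned. Which scaling is nearer to RNA per cell was not tested. With a pseudocount of 0.1, 1313 genes lower at 6 h were not called at 24 h and 505 were above mock, and with voom on the estimated reads these were 1319 and 508. The other alternatives left each of these counts within 1.5 times, as did each library left out, where 4443 to 5461 genes were higher and 7054 to 7194 lower between the times. Of 2170 checks on 155 named genes, 2136 kept their call, 26 lost it, 8 gained it and 0 turned round. Many of these genes were named only if 3 scalings gave the same call, so their stability under scaling was fixed by the choice. Over all genes 2587 turned from lower to higher with library totals, as did NBR1, IPS1, SQD2 and GDPD1, printed outside the rule. AT1G34510, a peroxidase gene, was not called as deposited (adjusted p = 0.079) and was called in 6 alternatives. Replicate numbers did not pair the libraries: the correlations of their deviations ran from -0.07 to 0.09 over 15 pairs of groups. With the replicate block, 5897 genes were higher and 7609 lower. Genes of few reads, such as AT2G24592, and groups of 2 libraries limit the precision.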
